A study of Mus musculus with 6 samples.

Results

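Cytochrome P450 genes that respond to the xenobiotic receptors AhR, CAR and PXR were examined in mouse liver. The genes were chosen by name and comprised Cyp1a2, Cyp2a4, Cyp2a5, Cyp2a12, Cyp2b9, Cyp2b10, Cyp2b13, Cyp3a11, Cyp3a13 and Cyp3a25, which are 10 of the 24411 genes in the count table. The livers came from 3 p62+/+ mice and 3 p62S351E/+ mice at postnatal day 19. p62 is the autophagy receptor encoded by Sqstm1, and p62S351E/+ mice carry 1 allele that encodes glutamate in place of Ser351, a residue that mimics phosphorylation. The comparison asks how a p62 that mimics the phosphorylated form, from 1 of the 2 alleles, alters gene expression in the liver. The allele was made by prime editing in an embryonic stem cell line derived from C57BL/6N mice and is present in every cell of the heterozygotes, which were obtained by in vitro fertilization with sperm of a single male chimera with low chimerism. The sources used here give no sex for the mice and no diet, drug or inducer, so these are levels without a stated treatment. The authors reported strong growth retardation, mild liver enlargement and serum signs of malnutrition and dehydration in p62S351E/+ mice at earlier ages. Signs of nutritional state thus differed with genotype at those ages, and the part of nutrition in the levels below was not tested.

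AhR, CAR and PXR are ligand-activated transcription factors of the hepatocyte. AhR pairs with ARNT and is best known for inducing Cyp1a genes, CAR pairs with RXR and is best known for inducing Cyp2b genes, and PXR pairs with RXR and is best known for inducing Cyp3a genes, although the target sets overlap. The enzymes oxidize drugs, steroids, bile acids and dietary compounds with electrons supplied by the reductase encoded by Por. Cyp2a5, which hydroxylates coumarin, is also a known target of NRF2, the factor that KEAP1 holds back and that p62 releases by binding KEAP1.

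Cyp2a5 was the member that passed the test, with 94.3 ± 45.0 normalized counts in p62+/+ livers and 851 ± 66.9 in p62S351E/+ livers (SD, n = 3 each). Cyp3a11, the main Cyp3a enzyme of adult mouse liver, had 354 ± 43.5 normalized counts in p62+/+ livers and 170 ± 40.4 in p62S351E/+ livers (SD, n = 3 each), and was the one tested gene of the 10 whose fold change was below 0. Its neighbour Cyp3a25 had the opposite order, 197 ± 20.1 against 491 ± 134 (SD, n = 3 each). Neither of these Cyp3a differences passed the test over all genes. The CAR marker gene Cyp2b10 was at 0 to 3.1 counts in every liver.

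The promoters of these genes show how alike some members are and how unlike others are. The 250 bases upstream of the RefSeq start (GRCm38.p6, 5′ to 3′) are given for Cyp2a5, the member with the largest rise, and for Cyp2a4, its closest relative. Capitals mark the 4 bases of this stretch that differ between them, which are T18C, C130T, A160G and T204G (Cyp2a5 base, position counted from 1 at the 5′ end of the Cyp2a5 stretch, Cyp2a4 base).
Cyp2a5 (chr7:26835089-26835338, plus strand): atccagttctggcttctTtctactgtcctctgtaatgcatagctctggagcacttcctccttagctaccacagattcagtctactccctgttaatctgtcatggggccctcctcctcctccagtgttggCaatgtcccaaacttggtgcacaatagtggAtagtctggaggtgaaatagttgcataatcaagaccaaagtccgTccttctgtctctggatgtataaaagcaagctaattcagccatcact
Cyp2a4 (chr7:26306942-26307191, plus strand): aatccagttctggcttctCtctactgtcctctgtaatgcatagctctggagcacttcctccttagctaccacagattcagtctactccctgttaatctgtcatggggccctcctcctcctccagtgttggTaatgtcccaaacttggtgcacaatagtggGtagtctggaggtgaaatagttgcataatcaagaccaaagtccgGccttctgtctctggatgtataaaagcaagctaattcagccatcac

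Over windows of 300 bases that reach 50 bases past the start, Cyp2a4 and Cyp2a5 were identical at 294 bases, or 98.0%. Cyp2b9 and Cyp2b13 were identical at 298 bases, or 99.3%. The Cyp3a11 and Cyp3a25 windows were identical at 173 bases, or 57.7%. The upstream stretches of these 2 Cyp3a genes follow because their fold changes had opposite signs, and capitals mark matches to AGGTCA or AGTTCA on either strand, which are half-site letters of nuclear receptors such as CAR and PXR.
Cyp3a11 (chr5:145879855-145880104, minus strand): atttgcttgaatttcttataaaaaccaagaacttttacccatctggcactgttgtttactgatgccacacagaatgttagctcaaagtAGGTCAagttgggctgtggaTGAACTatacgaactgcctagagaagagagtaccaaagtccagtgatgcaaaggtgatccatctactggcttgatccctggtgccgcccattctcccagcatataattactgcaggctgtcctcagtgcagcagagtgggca
Cyp3a25 (chr5:146009619-146009868, minus strand): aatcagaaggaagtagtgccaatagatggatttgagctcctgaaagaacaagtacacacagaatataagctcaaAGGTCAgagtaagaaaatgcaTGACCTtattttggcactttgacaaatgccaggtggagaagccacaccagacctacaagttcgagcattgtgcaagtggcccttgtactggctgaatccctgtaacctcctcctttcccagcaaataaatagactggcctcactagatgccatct

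All 10 genes matched an entry of the RefSeq promoter table. The GENCODE annotation, used for the gene positions below, starts Cyp2a4, Cyp2a5 and Cyp3a11 further upstream than RefSeq does. Part of each of their stretches thus lies inside the GENCODE gene, and the Cyp3a25 stretch lies outside it. AGGTCA was found in the 300-base windows of 6 members (Cyp2a4, Cyp2a5, Cyp2b9, Cyp2b13, Cyp3a11 and Cyp3a25) and in 16.3% of the 32851 promoter windows of the table. The matches of Cyp2a4 and Cyp2a5 lie past the start, by 30 and 29 bases, and outside the upstream stretches shown. The windows of Cyp2a4 and Cyp2a5 are nearly identical, as are those of Cyp2b9 and Cyp2b13, so the 6 are not independent cases. AGTTCA was found in the window of Cyp3a11 and in 14.0% of all windows. The AhR core letters GCGTG occurred in the window of Cyp2b10 alone among the members and in 32.4% of all windows. TGACNNNGC, the core of the antioxidant response element bound by NRF2, was found in no member window and in 12.4% of all windows. Both strands were searched, and the TGAC of the last motif is shared with the reverse complement of AGGTCA. A match is a run of letters in this window and not a bound site, and enhancers further upstream were not searched.

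The depth behind these levels is low. Total counts per liver were between 8696712 and 10341622, but between 134911 and 315436 counts fell outside Rn45s, Lars2 and Mir6236, with p62S351E/+ mouse 1 the lowest. The 10 genes held 0.376% to 0.504% of the counts outside those 3 genes in p62+/+ livers and 0.838% to 1.06% in p62S351E/+ livers. Hepatocyte markers were present in every liver, all 10 of 10 detected. Markers of brain set the libraries apart as well. Summed over 10 brain markers, p62+/+ livers had 2408, 2563 and 2186 counts, p62S351E/+ livers 1 and 2 had 20 and 31, and p62S351E/+ liver 3 had 2364, with 6 of the 10 markers at 0 in each of p62S351E/+ mice 1 and 2, among them Snap25, Gfap, Camk2a and Stmn2. Slc1a2, which liver also expresses, supplied 17 and 26 of their counts. Xist, the RNA of the silenced X chromosome in female cells, was at 70.8, 1505 and 1071 counts in the p62+/+ libraries and at 1, 0 and 1537 in the p62S351E/+ libraries, and the labels give no sex. These Xist levels are not balanced between the groups. The Y-linked genes Ddx3y, Eif2s3y, Kdm5d and Uty summed to 77, 12 and 21 counts in p62+/+ and 44, 72 and 14 in p62S351E/+ livers. The sum was above 0 in every liver, those with high Xist among them. Sqstm1 itself had 77.9, 73.0 and 86.4 normalized counts in p62+/+ livers and 105, 97.0 and 89.9 in p62S351E/+ livers, which checks no allele because counts per gene do not separate alleles. The value of p62S351E/+ mouse 3, whose brain markers and Xist were like those of p62+/+ mice 2 and 3, is given for every member. With mouse 3 alone in its group, the fit takes this mouse to vary as the p62+/+ mice do.

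Over all genes, 5945 passed the filter on low counts and were tested by edgeR. Calls needed a Benjamini-Hochberg adjusted p below 0.05 together with a log2 fold change beyond 1 in either direction. By this rule edgeR called 0.841% of tested genes higher and 0.0841% lower in p62S351E/+ livers, 50 and 5 genes. Scaling to hepatocyte markers, added after seeing the data, called 12 higher and 5 lower. Of the 10 P450 genes, 9 were tested, 1 was called higher, 0 were called lower, and Cyp2b10 did not pass the filter. Without p62S351E/+ mouse 3 edgeR called 7 members higher, where 329 of all 6390 genes tested were called higher and 976 lower. The p62S351E/+ livers left in that fit are those with few brain-marker counts. Without p62+/+ mouse 3 edgeR called 0 members higher, where 20 of all 6509 genes tested were called higher. Cyp3a11 had an unadjusted p of 0.00218, and limma-voom called 1 member lower and DESeq2 0. All 9 had an unadjusted p below 0.05, as did 14.6% of all tested genes. The groups did not overlap for all 9 tested members, 8 higher and 1 lower in p62S351E/+ livers, where 12.0% of all tested genes were higher without overlap and 14.7% were lower without overlap. Cyp2a4 and Cyp2b13 had 7.53 and 5.82 counts in p62+/+ mouse 1, below the filter's minimum. They passed it through the p62S351E/+ livers, where they are higher, so their place in this count is not independent of its direction. The median log2 fold change was 1.32 over the 9 members and -0.03 over all tested genes. These genes are related in sequence and share the hepatocyte, so the members are not independent of each other.

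**Figure D1:**
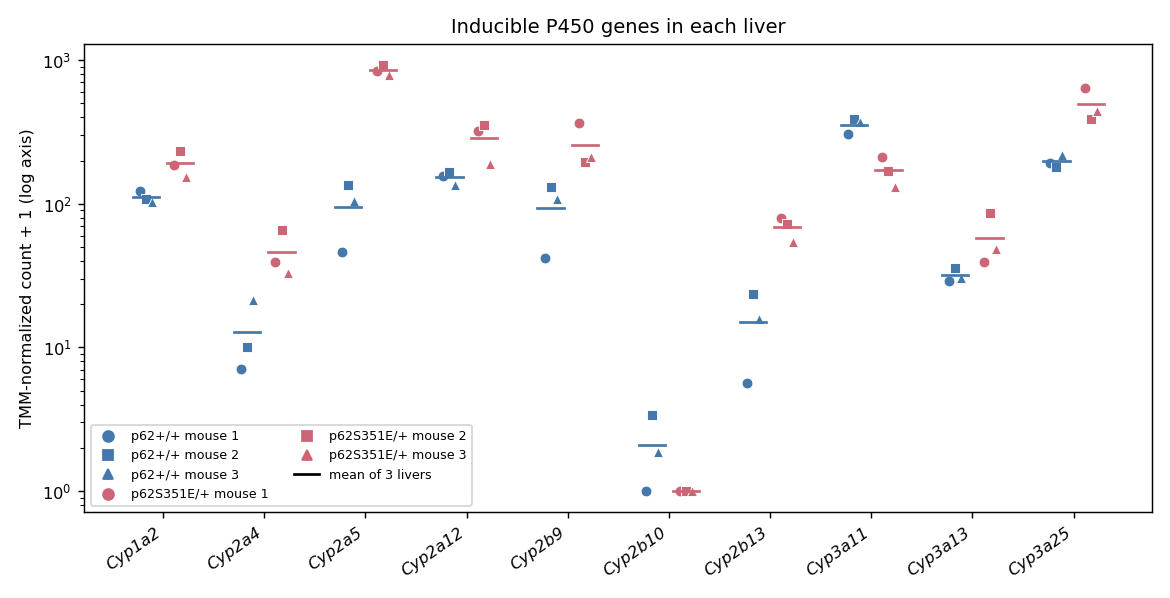
TMM-normalized counts plus 1 (log axis) of the 10 P450 genes in each liver, with a symbol for each mouse, blue for p62+/+, red for p62S351E/+ and a line at the mean of 3 livers. The red symbols lie above the blue ones for 8 genes and below them for Cyp3a11, and Cyp2b10 is at or near 0 in all livers.

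Cyp1a2 is the AhR-responsive gene of the set and encodes an enzyme that metabolizes caffeine and aromatic amines and is present in liver without induction. Cyp1a2 (chr9:57676937-57683703, minus strand, GRCm38) had 122, 106 and 102 normalized counts in p62+/+ mice 1, 2 and 3 and 187, 233 and 153 in p62S351E/+ mice 1, 2 and 3. The 3 p62S351E/+ values were the higher ones, with no overlap. Its log2 fold change was 0.79 (standard error 0.23, 95% interval 0.27 to 1.31, edgeR adjusted p = 0.188), which did not pass the test. Scaled to the total count alone, the log2 fold change of Cyp1a2 was 0.09 while the median of all genes was -0.68. In p62S351E/+ mouse 3 Cyp1a2 was 1.39 times the p62+/+ mean. Over 20 alternatives its log2 fold change was 0.09 to 0.93, and it was called in 0 of them. The receptor gene Ahr had 12.8, 24.1 and 13.8 normalized counts in p62+/+ livers and 45.7, 26.5 and 27.9 in p62S351E/+ livers, without overlap (log2 fold change 0.96, edgeR adjusted p = 0.279). Cyp1a1, the classical AhR marker, was at 0 counts in all 6 livers.

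The Cyp2a genes lie in one cluster on chromosome 7, and Cyp2a5 is known to respond to several receptors, CAR among them. Cyp2a4 encodes a steroid 15α-hydroxylase that is female-biased, and Cyp2a12 encodes a steroid 7α-hydroxylase. Cyp2a5 (chr7:26835305-26843548, plus strand, 9 exons, GRCm38, as GENCODE annotates it) had 45.3, 134 and 104 normalized counts in p62+/+ mice 1, 2 and 3 and 844, 921 and 788 in p62S351E/+ mice 1, 2 and 3. All 3 p62S351E/+ livers exceeded the highest p62+/+ liver by a wide margin, and p62+/+ mouse 1, with the lowest Xist of its group, was the lowest. The log2 fold change of Cyp2a5 was 3.18 (standard error 0.39, 95% interval 2.29 to 4.06), and edgeR's adjusted p was 0.00891. The ratio of the means was 9.02. In p62S351E/+ mouse 3, which carries brain transcripts and Xist like p62+/+ mice 2 and 3, Cyp2a5 was 8.35 times the p62+/+ mean. The log2 fold change of Cyp2a5 was 3.36 with Xist as a covariate (edgeR adjusted p = 0.0313) and 3.07 with the brain markers as a covariate (edgeR adjusted p = 0.00384). Among the 50 genes called higher, Cyp2a5 ranked 15 by fold change and 2 by its mean normalized count in p62S351E/+ livers. The call of Cyp2a5 was lost when libraries were scaled to the total count alone (log2 fold change 2.52, edgeR adjusted p = 0.0548) and without p62+/+ mouse 3 (3.26, edgeR adjusted p = 0.0608). It was also lost in 2 alternatives added after seeing the data. These were p62S351E/+ mouse 3 alone in its group (3.08) and scaling to the hepatocyte markers (2.63, edgeR adjusted p = 0.107). In each alternative that lost the call the log2 fold change was 2.52 or more.

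Cyp2a4 (chr7:26307169-26315088, plus strand, GRCm38) had 6.04, 9.13 and 20.5 normalized counts in p62+/+ livers and 38.05, 64.4 and 32.0 in p62S351E/+ livers. The groups did not overlap, but the log2 fold change of 1.87 (standard error 0.46, edgeR adjusted p = 0.131) did not pass the test. Cyp2a4 was called in 2 of 19 alternatives, limma-voom (adjusted p = 0.00951) and without p62S351E/+ mouse 3 (edgeR adjusted p = 0.00405), and was 1.17 to 2.49 over them. Cyp2a12 (chr7:27029081-27037375, plus strand) had 155, 166 and 135 normalized counts in p62+/+ livers and 321, 354 and 189 in p62S351E/+ livers, and its lowest p62S351E/+ value was that of mouse 3. The log2 fold change of Cyp2a12 was 0.92 (standard error 0.27, edgeR adjusted p = 0.203). It was 0.15 with library size only, 0.30 with the brain markers as a covariate, 0.31 scaled to the hepatocyte markers and 0.32 with p62S351E/+ mouse 3 alone. Without p62S351E/+ mouse 3 it was 1.15 and was called (edgeR adjusted p = 0.00139). Cyp2a5 and Cyp2a4 share sequence, so reads can be divided between them. With reads of 75 bases, 18.0% of the positions of a Cyp2a5 transcript also occur in Cyp2a4 and 11.4% occur in the pseudogene Cyp2a21-ps. Of the positions of a Cyp2a4 transcript, 21.0% also occur in Cyp2a5, which has far higher counts, and this limits the reading of Cyp2a4. As a sum, chosen after seeing the data, the log2 fold change of Cyp2a4 and Cyp2a5 together was 3.08 (SE 0.38), and the sum was called (edgeR adjusted p = 0.00903). Sums made alike for Cyp2a12 with Cyp2a22, for the Cyp2b genes and for Cyp3a genes near Cyp3a11 were not called. Their log2 fold changes were 0.94, 1.59 and -1.05 (edgeR adjusted p = 0.2288, 0.2042 and 0.1395).

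**Figure D2:**
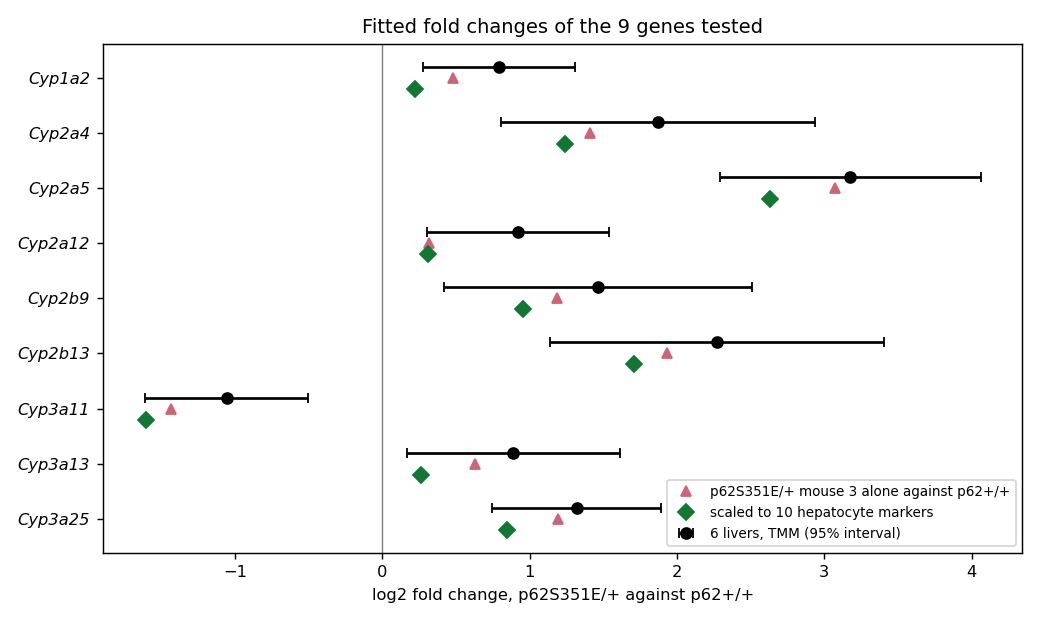
Log2 fold change of the 9 tested genes, with the 95% interval of the edgeR fit in black, the value with p62S351E/+ mouse 3 alone in red and the value scaled to 10 hepatocyte markers in green. Cyp3a11 lies below 0 in all 3 and the other genes lie above 0 in all 3, with Cyp2a5 furthest to the right.

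The Cyp2b genes include the best known targets of CAR, and Cyp2b9 and Cyp2b13 are female-biased in adult mouse liver. Cyp2b9 (chr7:26173411-26210661, plus strand, GRCm38) had 41.1, 130 and 108 normalized counts in p62+/+ mice 1, 2 and 3 and 366, 196 and 211 in p62S351E/+ mice 1, 2 and 3. p62S351E/+ mouse 1, whose Xist was at 1 count, was the highest, and p62+/+ mouse 1 was the lowest. For Cyp2b9 the fitted log2 fold change was 1.46 (SE 0.45, edgeR adjusted p = 0.231). Cyp2b13 (chr7:26061497-26096197, plus strand) had 4.67, 22.4 and 14.9 normalized counts in p62+/+ livers and 79.2, 71.5 and 53.2 in p62S351E/+ livers, a log2 fold change of 2.27 (standard error 0.49, edgeR adjusted p = 0.101). The groups did not overlap in either case and neither gene passed the test. Cyp2b13 was called in 3 of 19 alternatives, by DESeq2 (2.25, adjusted p = 0.011), by limma-voom (2.46, adjusted p = 0.00607) and by edgeR without p62S351E/+ mouse 3 (2.42, adjusted p = 0.00263), and was 1.56 to 2.81 over them. Cyp2b9 was 0.71 to 1.80 over 20 alternatives and was called without p62S351E/+ mouse 3 (1.59, edgeR adjusted p = 0.0395). For Cyp2b13, 83.6% of the 75-base positions were unique to it. Cyp2b10 (chr7:25897620-25926624, plus strand), the gene most used to read CAR activity, had 0, 3.1 and 1 counts in p62+/+ livers and 0 in each p62S351E/+ liver. These are at or near the 3 counts that a count of 0 allows, equal to 2.32 to 5.71 normalized counts per liver, so no fold is given. CAR itself, encoded by Nr1i3, had 16.3, 49.9 and 50.9 normalized counts in p62+/+ livers and 136, 118 and 109 in p62S351E/+ livers, without overlap (log2 fold change 1.63, edgeR adjusted p = 0.131).

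The Cyp3a genes are known targets of PXR and lie on chromosome 5. Cyp3a11 is often taken as the mouse counterpart of human CYP3A4, Cyp3a13 is also expressed in intestine, and Cyp3a25 is a liver Cyp3a gene. Cyp3a11 (chr5:145854426-145879964, minus strand, 13 exons, GRCm38) had 305, 387 and 371 normalized counts in p62+/+ mice 1, 2 and 3 and 211, 170 and 130 in p62S351E/+ mice 1, 2 and 3. All 3 p62S351E/+ values were below every p62+/+ value, and p62S351E/+ mouse 3 was the lowest. The log2 fold change of Cyp3a11 was -1.06 (standard error 0.24, 95% interval -1.61 to -0.50, edgeR adjusted p = 0.109), which did not pass the test. In p62S351E/+ mouse 3 Cyp3a11 was 0.368 times the p62+/+ mean. With mouse 3 alone in its group the log2 fold change was -1.43, from a fit without replicates of p62S351E/+. Over 20 alternatives Cyp3a11 stayed below 0 (-1.81 to -0.89) and was called in 5 of them. It was -1.23 with Xist as a covariate (edgeR adjusted p = 0.164) and -1.45 with the brain markers as a covariate (edgeR adjusted p = 0.0734). Cyp3a25 (chr5:145977194-146009618, minus strand) had 192, 180 and 219 normalized counts in p62+/+ livers and 641, 385 and 445 in p62S351E/+ livers, with no overlap. The log2 fold change of Cyp3a25 was 1.32 (standard error 0.25, 95% interval 0.75 to 1.89, edgeR adjusted p = 0.0636), and over 20 alternatives it was 0.59 to 1.47 and was called in 8. Cyp3a13 (chr5:137892932-137921619, minus strand) had 28.1, 34.9 and 29.4 normalized counts in p62+/+ livers and 38.1, 85.7 and 47.3 in p62S351E/+ livers, a log2 fold change of 0.89 (standard error 0.32, edgeR adjusted p = 0.272). It was 0.24 to 1.11 over 20 alternatives and was called without p62S351E/+ mouse 3 (1.02, edgeR adjusted p = 0.0378). PXR, encoded by Nr1i2, had 18.5 ± 4.10 normalized counts in p62+/+ livers and 23.3 ± 4.92 in p62S351E/+ livers (SD, n = 3 each). For Nr1i2 the log2 fold change was 0.32 (edgeR adjusted p = 0.607).

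Ratios of 2 genes within a liver do not depend on scaling between livers. They were chosen after the values were known. The ratio of Cyp3a11 to Cyp3a25 was 1.59, 2.15 and 1.70 in p62+/+ livers and 0.329, 0.440 and 0.293 in p62S351E/+ livers. The order of the 2 genes was thus turned round in each p62S351E/+ liver. The ratio of Cyp2a5 to Cyp2a12 was 0.293, 0.806 and 0.770 in p62+/+ livers and 2.63, 2.60 and 4.18 in p62S351E/+ livers. For 6 such pairs the 2-sided exact permutation p was 0.1 for Cyp3a11 to Cyp3a25, Cyp2a5 to Cyp2a12, Cyp2a5 to Cyp1a2 and Cyp2b9 to Cyp2b13, which is the smallest p that 3 against 3 livers allow, and 0.15 after adjustment over the 6 pairs. It was 0.2 for Cyp2a5 to Cyp2a4 and 0.4 for Cyp2b9 to Cyp1a2, adjusted 0.24 and 0.4, and these groups overlapped.

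**Figure D3:**
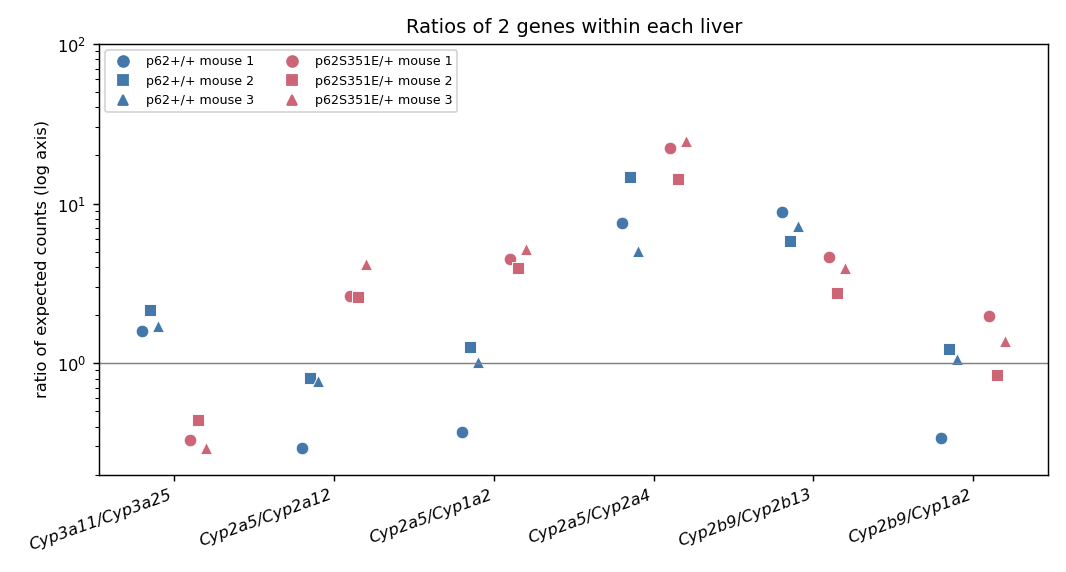
Ratio of the counts of 2 genes within each liver (log axis), with a symbol for each mouse, blue for p62+/+ and red for p62S351E/+. The Cyp3a11 to Cyp3a25 ratio is above 1 in the 3 p62+/+ livers and below 1 in the 3 p62S351E/+ livers, and the ratios of Cyp2a5 to Cyp2a12 and to Cyp1a2 lie higher in the 3 p62S351E/+ livers.

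The make-up of the summed counts of the 10 genes also differed between the groups. Cyp3a11 held 33.5 ± 0.473% of them in p62+/+ livers and 6.99 ± 0.701% in p62S351E/+ livers (SD, n = 3 each). Cyp2a5 held 8.62 ± 3.25% and 35.5 ± 4.01% (SD, n = 3 each). The shares of Cyp1a2, Cyp2a4, Cyp2a12, Cyp2b9, Cyp3a13 and Cyp3a25 overlapped between the groups, and those of Cyp2a5 and Cyp2b13 were higher in each p62S351E/+ liver. Shares sum to 100%, so a rise of Cyp2a5 lowers the share of every other member.

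**Figure D4:**
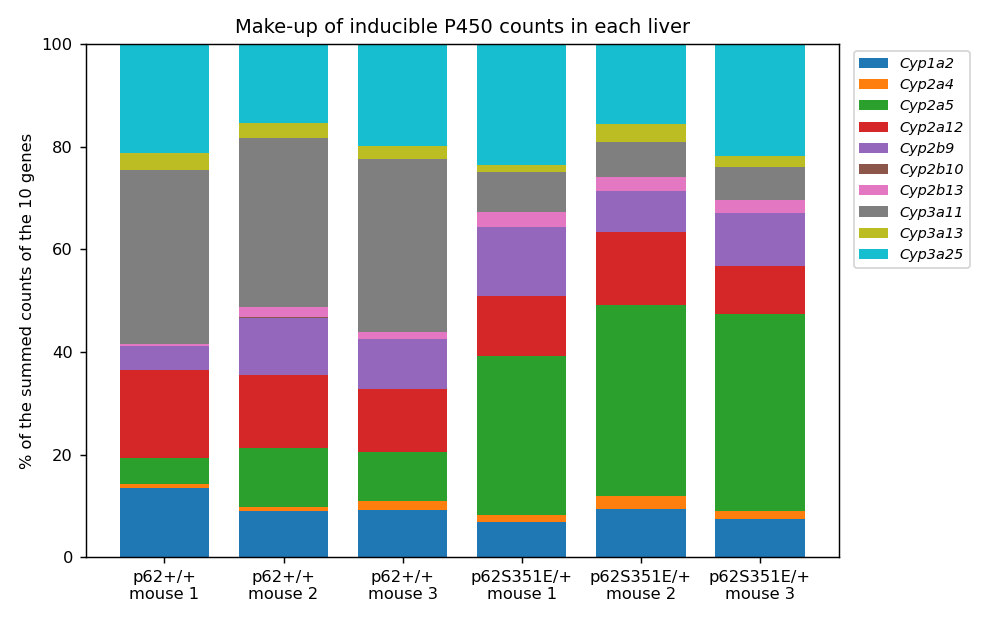
Share of each of the 10 genes in their summed counts, one bar for each liver, as a percentage. Cyp3a11 (grey) takes 33.5% of the bar on average in the p62+/+ livers and 6.99% in the p62S351E/+ livers, and Cyp2a5 (green) takes 8.62% and 35.5%.

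Levels can be compared between genes per length of transcript. Per kilobase, Cyp3a11 was the highest of the 10 genes in p62+/+ livers at 151 ± 18.6 normalized counts, followed by Cyp3a25 at 98.4 ± 10.1 and Cyp2a12 at 90.3 ± 9.32 (SD, n = 3 each). Cyp3a25 and Cyp2a12 differed by less than their spread. In p62S351E/+ livers the highest was Cyp2a5 at 423 ± 33.2 per kilobase, followed by Cyp3a25 at 245 ± 66.9, and Cyp3a11 was 6th at 72.7 ± 17.2 (SD, n = 3 each). Cyp2a5 had been 6th of 10 in p62+/+ livers at 46.8 ± 22.3 (SD, n = 3).

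**Figure D5:**
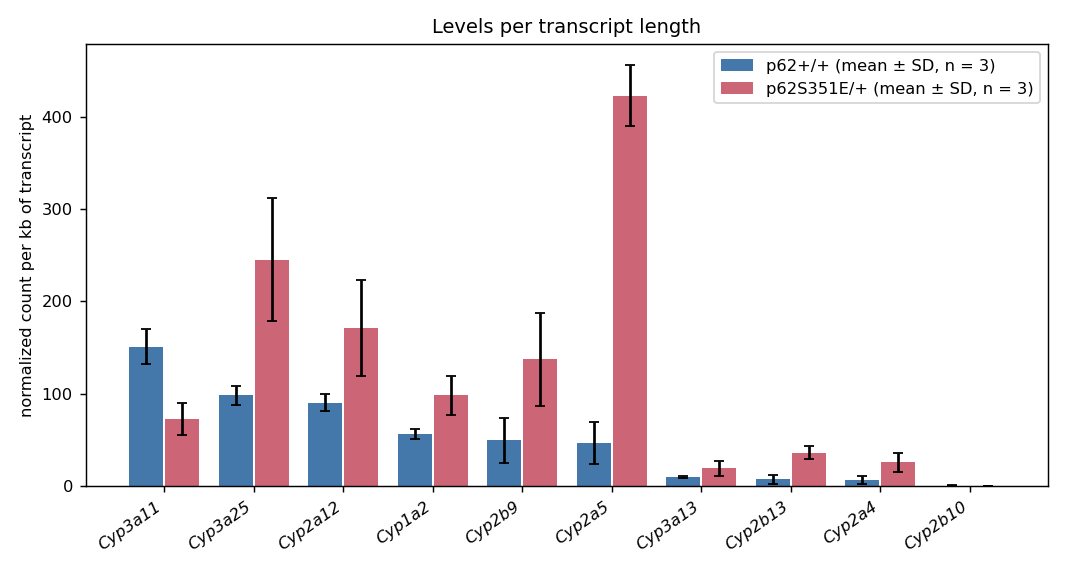
Normalized counts per kilobase of transcript of the 10 genes (bars are means of 3 livers, error bars are SD), ordered by the p62+/+ level. In p62+/+ livers Cyp3a11 is highest at 151, and in p62S351E/+ livers Cyp2a5 is highest at 423.

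Markers of liver cell types also differed between the groups in part. The summed normalized counts of 6 Kupffer cell markers were 50.6, 41.1 and 57.9 in p62+/+ livers and 80.0, 79.4 and 65.1 in p62S351E/+ livers, higher without overlap. Those of 6 stellate cell markers were 264, 149 and 151 against 139, 90.7 and 126, and those of 5 red cell genes were 174, 136 and 194 against 133, 110 and 56.2, both lower without overlap. Endothelial, bile duct and intestine markers overlapped, kidney markers were at 0, and the part of these cell types in the P450 levels was not tested. The summed normalized counts of 10 markers, among them Alb, Apoa1 and Ttr, were 14659, 13360 and 14026 in p62+/+ livers and 19801, 32051 and 14193 in p62S351E/+ livers. Mouse 3 of the p62S351E/+ group lay among the p62+/+ values and the other two lay above them. Their median log2 fold change was 0.50 over the 10, with 9 above 0 and 0 called. In bulk RNA, fewer cells of a type and less RNA per cell cannot be told apart. Expressed per 1000 hepatocyte-marker counts, 3 members were higher without overlap (Cyp2a4, Cyp2a5 and Cyp2b13), 1 was lower without overlap (Cyp3a11), and the other 5 tested members overlapped. Cyp2a4 and Cyp2b13 passed the filter through the p62S351E/+ livers, so their place in this count too is not independent of its direction. On the same scale 2.15% of all tested genes were higher without overlap and 24.9% were lower without overlap. Cyp2a5 had 3.09, 10.01 and 7.41 per 1000 in p62+/+ livers and 42.6, 28.7 and 55.5 in p62S351E/+ livers. Cyp3a11 had 20.8, 28.9 and 26.5 per 1000 in p62+/+ livers and 10.7, 5.29 and 9.19 in p62S351E/+ livers.

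Genes of the pathways around these P450s were described from lists. Of 18 receptor, partner and electron supply genes, 16 were tested, 1 was called higher and 0 lower, with a median log2 fold change of 0.70 against -0.03 over all genes. The gene called was Blvrb, a biliverdin reductase, with 11.9 ± 1.88 normalized counts in p62+/+ livers and 58.1 ± 15.5 in p62S351E/+ livers (SD, n = 3 each, edgeR adjusted p = 0.0114). Por, the reductase that supplies electrons to the P450s, had a log2 fold change of 0.68 (edgeR adjusted p = 0.234). Of 9 other AhR targets, 4 were tested and 1 was called higher, the glucuronosyltransferase gene Ugt1a6b (log2 fold change 1.71, edgeR adjusted p = 0.0379). Of 26 other CAR and PXR targets, 20 were tested, 4 were called higher and 0 lower, with a median log2 fold change of 0.98. These were Cyp2c37 (log2 fold change 2.04), the glucuronosyltransferase gene Ugt2b35 (3.26), and the transporter genes Abcc3 (3.29) and Abcc4 (4.08), with edgeR adjusted p of 0.00913, 0.00602, 0.000511 and 0.0051. Of 24 NRF2 targets that are not P450s, 19 were tested, 10 were called higher and 0 lower, with a median log2 fold change of 2.57. The 10 were Gclc, Gsta2, Gstm1, Gstm3, Cbr1, Cbr3, Ugdh, Ephx1, Aox1 and Abcc4, with fitted log2 fold changes of 2.50 to 6.19, the highest for genes near 0 in p62+/+ livers. Some genes of this list were below the filter's minimum of 10 counts in p62+/+ livers. Among them were Cbr3 (1, 1 and 0 counts), Gsta2 (0, 2 and 1) and Abcc4 (4, 8 and 2). They passed the filter through the p62S351E/+ livers, where they are higher, so their calls and the median are not independent of direction. The NRF2 list was also chosen with results of these samples known and is no independent evidence of its direction. Abcc4 stands in both of the last lists, and the same limit holds for it in each. Of 12 other genes of the Cyp1, Cyp2a, Cyp2b, Cyp2g and Cyp3a families in the table, 3 were tested and 0 were called.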

How the data were processed

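Livers were taken at postnatal day 19 from 3 p62+/+ and 3 p62S351E/+ mice, and RNA depleted of ribosomal RNA was read as single-end reads of 75 bases. The authors trimmed reads with Trim Galore, mapped them to mm10 with STAR and deposited expected counts per gene from RSEM, without normalization. Versions, the gene annotation and strand handling are not given in the sources used here. RSEM divides reads that match several genes, so 6.45% of nonzero values were not whole (tolerance 1e-06), and values were rounded to whole numbers before the fits.

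Fits used R 4.3.3 and edgeR 4.0.16 (filterByExpr with minimum count 10, TMM, robust quasi-likelihood with legacy set to FALSE), limma 3.58.1 and DESeq2 1.42.0, with Benjamini-Hochberg adjustment over the genes each fit tested (5945 in the edgeR fit reported, 2343 to 16283 in the alternatives), and were tested on simulated data. For normalized counts, each library's TMM-adjusted size was divided by the geometric mean size over libraries, and the counts were divided by the result. Alternatives were other tools, scalings, filters and thresholds, a replicate block, covariates and leaving out each mouse. Named genes were all 10 members, the called genes of each list and up to 4 genes per list with the highest level, and the 3 genes most correlated with each of the 3 highest members. Ahr, Nr1i2, Nr1i3 and Cyp1a1 were named beside their families after their values were seen. The members and lists were chosen with earlier results of these data known. Groups follow the sample labels, and equal numbers in both groups are different mice. The floor of 3 counts covers counting error only, and the 95% intervals of fold changes come from the edgeR fit.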

Additional observations from a re-analysis of the deposited data

How the results depend on the processing

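The count of members called higher was 1, and it stayed 1 with DESeq2 size factors, upper-quartile factors, library size without Rn45s, Lars2 and Mir6236, the replicate block, the Xist and brain-marker covariates, an adjusted p below 0.01 and no minimum fold change. It was 3 with DESeq2, 4 with limma-voom, 2 with the legacy quasi-likelihood method, 2 without a filter, 2 with at least 10 counts in every library, 0 with library size only and 0 with hepatocyte-marker library size (added after seeing the data). Leaving out each mouse gave 0 to 7, with 0 without p62+/+ mouse 3 and 7 without p62S351E/+ mouse 3, where 329 genes were called higher and 976 lower overall. With p62S351E/+ mouse 3 alone it was 1 (Cyp3a25, added after seeing the data). The count called lower was 0, and it was 1 (Cyp3a11) with limma-voom, with library size without the 3 genes, without a filter, with at least 10 counts in every library and with mouse 3 alone. Leaving out each mouse gave 0 to 0. None of the 9 tested members reversed direction in an alternative that fitted it. Cyp2b10 was given no fold in any, and Cyp2a4 and Cyp2b13 have no value with at least 10 counts in every library. The cause of these changes was not tested. Library size only moved the median of all genes to -0.68, hepatocyte-marker library size to -0.54, DESeq2 to -0.18, no filter to -0.16 and library size without the 3 genes to -0.16. The numbers did not pair the mice: deviations of same-numbered mice correlated at 0.07, -0.09 and 0.00. The replicate block gave Cyp2a5 a log2 fold change of 3.30 (edgeR adjusted p = 0.0376) and changed no member's call. Over all genes, 50 higher and 5 lower calls became 131 and 12 with limma-voom, 66 and 8 with DESeq2, 79 and 10 without a filter, 70 and 29 with at least 10 counts in every library, 72 and 23 with mouse 3 alone, 12 and 2 with library size only, 27 and 2 with Xist, 30 and 2 with the brain markers, and 18 and 1 both with the replicate block and at an adjusted p below 0.01. The low depth limits every gene below about 10 counts per library. Among the members this holds for Cyp2b10 in every liver. It also holds for Cyp2a4 and Cyp2b13 in p62+/+ mouse 1, with 7.53 and 5.82 counts.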

Other observations

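Other gene groups of the liver were described in the same way. Of 30 other liver P450 genes, 25 were tested, 2 were called higher and 2 lower, with a median log2 fold change of 0.56. Cyp2c37 and Cyp2d26 were higher, and Cyp2c69 (log2 fold change -3.52, edgeR adjusted p = 0.00656) and Cyp4f14 (-1.28, edgeR adjusted p = 0.0411) were lower. Of 17 pericentral hepatocyte genes, 12 were tested and 1 was called higher. This was Cyp2c37, which also stands in the CAR and PXR list and in the list of other P450 genes. The median log2 fold change of the 12 was 0.20, with 8 above 0 and 4 below. Glul had 299, 297 and 272 normalized counts in p62+/+ livers and 38.1, 120 and 191 in p62S351E/+ livers. It was lower without overlap but was not called (log2 fold change -1.30, edgeR adjusted p = 0.312). Of 12 female-biased liver genes 4 were tested and 0 were called, and of 10 male-biased genes 4 were tested and 0 were called, with medians of -1.11 and 0.15. Cyp3a41a, a female-biased neighbour of Cyp3a11, had 3.06, 113.85 and 70.55 counts in p62+/+ livers and 0, 5.64 and 4.12 in p62S351E/+ livers and was not tested.

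The tested genes whose levels followed Cyp2a5 most closely over the 6 livers were Tcn2 (Pearson r = 0.996), Gsta2 (0.993) and Entpd5 (0.992). For Cyp3a25 they were Rmrp (0.991), Gclc (0.987) and Chchd10 (0.986), and for Cyp3a11 Zfp219 (0.980), Rabggtb (0.962) and Fam173a (0.960). These were picked as the highest of all tested genes over livers that differ by genotype, so they are a description.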
